A study of Mus musculus with 3 samples.

Results

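A set of 37 interferon-stimulated genes was followed through the immune cells of the mouse kidney, gene by gene, out of 32886 genes in the count table. The members are a list of gene symbols of known interferon targets. All 37 were found in the table, and the rule that lists them uses no measured value. The cells were CD45+ leukocytes sorted from collagenase-digested kidneys of wild-type, untreated male C57BL/6J mice aged 10 weeks. Kidneys were macrodissected into the cortex and the outer (OM) and inner (IM) parts of the medulla before sorting. Droplet-based single-cell RNA sequencing was then run separately at 3 facilities, namely Aachen, Bonn and Hamburg. This gave 9 libraries and 20266 cells, which the authors had sorted into 23 clusters. The facility served as the replicate and as a block in the model. The p-values therefore measure how far compartment differences vary between facilities, and not the spread of levels between them. How many mice stand behind each library is not given in the sources used here. No group was infected or given interferon, so the values describe the kidney at rest after tissue digestion.

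Interferons are secreted antiviral signals. Type I interferons bind the receptor pair IFNAR1 and IFNAR2, the kinases JAK1 and TYK2 phosphorylate STAT2, and a complex that holds STAT2 and IRF9 binds the interferon-stimulated response element (ISRE) in the promoters of target genes. The targets include sensors of foreign nucleic acid, enzymes that degrade or block viral RNA, proteins that stop viral entry, and transcription factors such as IRF7 that feed the response. Many of these genes keep a low tonic level without infection, and macrophages, monocytes and plasmacytoid dendritic cells are known for strong responses.

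The libraries held 621 to 3677 cells and 2122809 to 15267126 UMIs (unique molecular identifiers, each standing for 1 captured RNA molecule). The Aachen cells were shallower, with library medians of 744 to 1270.0 UMIs per cell against 2802 to 3505 in the libraries of the other facilities. The members took 0.378 to 0.546% of all UMIs. Any 2 libraries shared at most 16 cell barcodes. Values in the Hamburg cells were almost never whole numbers, and each Aachen library held 2 barcode suffixes. Some members were listed at 0 at whole facilities: Mx1 in all Bonn and Hamburg cells and Isg20 in all Hamburg cells. They were not alone, since 250 genes held at least 100 UMIs in Aachen while at 0 at both other facilities, as Mx1 was at 0 there. In Hamburg 11 genes were at 0 while holding at least 100 UMIs at both others, and in Aachen 677 were. The cause of these zeros was not tested.

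Promoter windows were read first, because the ISRE links the members by sequence. RefSeq promoters (GRCm38.p6) were found for 28 of the 37 members, the others being Usp18, Rtp4, Ifi27l2a, Ly6e, Zbp1, Dhx58, Parp14, Mx1 and Oas2. For each start of transcription the 250 bases before it were searched on both strands for the core of the ISRE, which reads GAAA, any 2 bases and GAAA again. The core was present in 12 of the 28 members (42.9%) against 936 of 27025 genes with a window (3.46%). The longer form, in which the core is followed by CT and every match of which is also a match of the core, was present in 7 members (25%) and in 0.255% of genes. The windows of 6 members that carry the results are shown, with every base of a core match in capitals. A match on the opposite strand reads TTTC, any 2 bases and TTTC, and matches may overlap, as they do in Isg15. The windows lie at chr4:156200819-156201068 on the minus strand (Isg15), chr19:34640639-34640888 on the plus strand (Ifit1), chr19:34583279-34583528 on the plus strand (Ifit3), chr12:26456453-26456702 on the minus strand (Rsad2), chr19:34550444-34550693 on the plus strand (Ifit2) and chr5:114922990-114923239 on the plus strand (Oasl1).
Isg15: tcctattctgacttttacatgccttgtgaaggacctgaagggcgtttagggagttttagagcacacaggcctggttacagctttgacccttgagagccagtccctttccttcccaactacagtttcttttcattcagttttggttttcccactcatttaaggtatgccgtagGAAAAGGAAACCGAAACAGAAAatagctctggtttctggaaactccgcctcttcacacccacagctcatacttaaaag
Ifit1: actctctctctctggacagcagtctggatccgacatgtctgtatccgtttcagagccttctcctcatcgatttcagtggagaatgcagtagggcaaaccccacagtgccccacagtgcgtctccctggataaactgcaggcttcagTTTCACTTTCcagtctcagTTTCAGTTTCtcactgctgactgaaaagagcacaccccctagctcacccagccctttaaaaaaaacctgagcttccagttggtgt
Ifit3: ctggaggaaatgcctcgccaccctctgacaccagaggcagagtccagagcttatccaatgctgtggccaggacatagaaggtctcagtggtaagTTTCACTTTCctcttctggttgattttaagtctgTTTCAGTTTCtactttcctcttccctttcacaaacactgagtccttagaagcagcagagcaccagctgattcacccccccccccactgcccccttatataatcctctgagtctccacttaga
Rsad2: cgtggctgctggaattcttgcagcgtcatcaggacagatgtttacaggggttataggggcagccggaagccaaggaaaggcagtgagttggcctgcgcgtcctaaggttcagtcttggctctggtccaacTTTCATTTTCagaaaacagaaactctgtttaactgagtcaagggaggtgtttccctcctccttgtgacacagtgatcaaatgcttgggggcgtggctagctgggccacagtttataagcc
Ifit2: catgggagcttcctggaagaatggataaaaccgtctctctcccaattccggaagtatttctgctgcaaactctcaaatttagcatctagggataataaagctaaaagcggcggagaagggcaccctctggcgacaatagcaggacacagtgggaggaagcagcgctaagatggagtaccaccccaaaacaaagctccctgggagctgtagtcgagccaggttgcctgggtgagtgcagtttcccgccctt
Oasl1: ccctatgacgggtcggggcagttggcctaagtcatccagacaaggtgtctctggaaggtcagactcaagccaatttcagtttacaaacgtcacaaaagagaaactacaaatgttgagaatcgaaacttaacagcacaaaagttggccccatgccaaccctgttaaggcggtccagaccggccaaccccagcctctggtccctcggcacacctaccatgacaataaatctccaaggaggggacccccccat

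As printed, the last base of a match lay 69, 63 and 57 bases before the start in Isg15. It lay at 95 and 76 bases in Ifit1, 147 and 113 in Ifit3, and 111 in Rsad2. Ifit2 and Oasl1 held no match in these windows, nor did Ifit2 before its other listed start. The other members with a match were Oas3, Oas1a, Bst2, Stat2, Slfn5, Slfn8, Trim30a and Phf11b. A match is a description of the letters, and no match says only that these letters are not in this window. Several members also lie close to each other in the genome. Ifit2, Ifit3 and Ifit1 lie between bases 34550694 and 34650009 of chromosome 19, Oas2, Oas3 and Oas1a between 120730333 and 120907521 of chromosome 5, and Rsad2 and Cmpk2 between 26442746 and 26479837 of chromosome 12. Neighbouring members of a family have similar sequences, and how reads shared between them were counted is not given in the sources used here.

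The members were not spread evenly over the cell types. Their summed level, in CPM (UMIs scaled to a common total per cluster or library), ran from 1085 in the cluster named Undefined and 1655 in NK_cell_1 to 15348 in the cluster the authors named Isg+_Macrophage (273 cells). Monocyte came next with 11687, followed by pDC (plasmacytoid dendritic cells) with 9547. The clusters of most resident macrophages, Macrophage_1, Macrophage_2 and Macrophage_3, stood at 4172, 4966 and 4555, and B_cell_1 at 4091. Isg+_Macrophage was above Monocyte at each facility. It stood at 20383, 16452 and 12488 CPM in Aachen, Bonn and Hamburg, and Monocyte at 9640.4, 12493 and 11068. Clusters were built from these same cells, so their levels are given without a test.

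**Figure D1:**
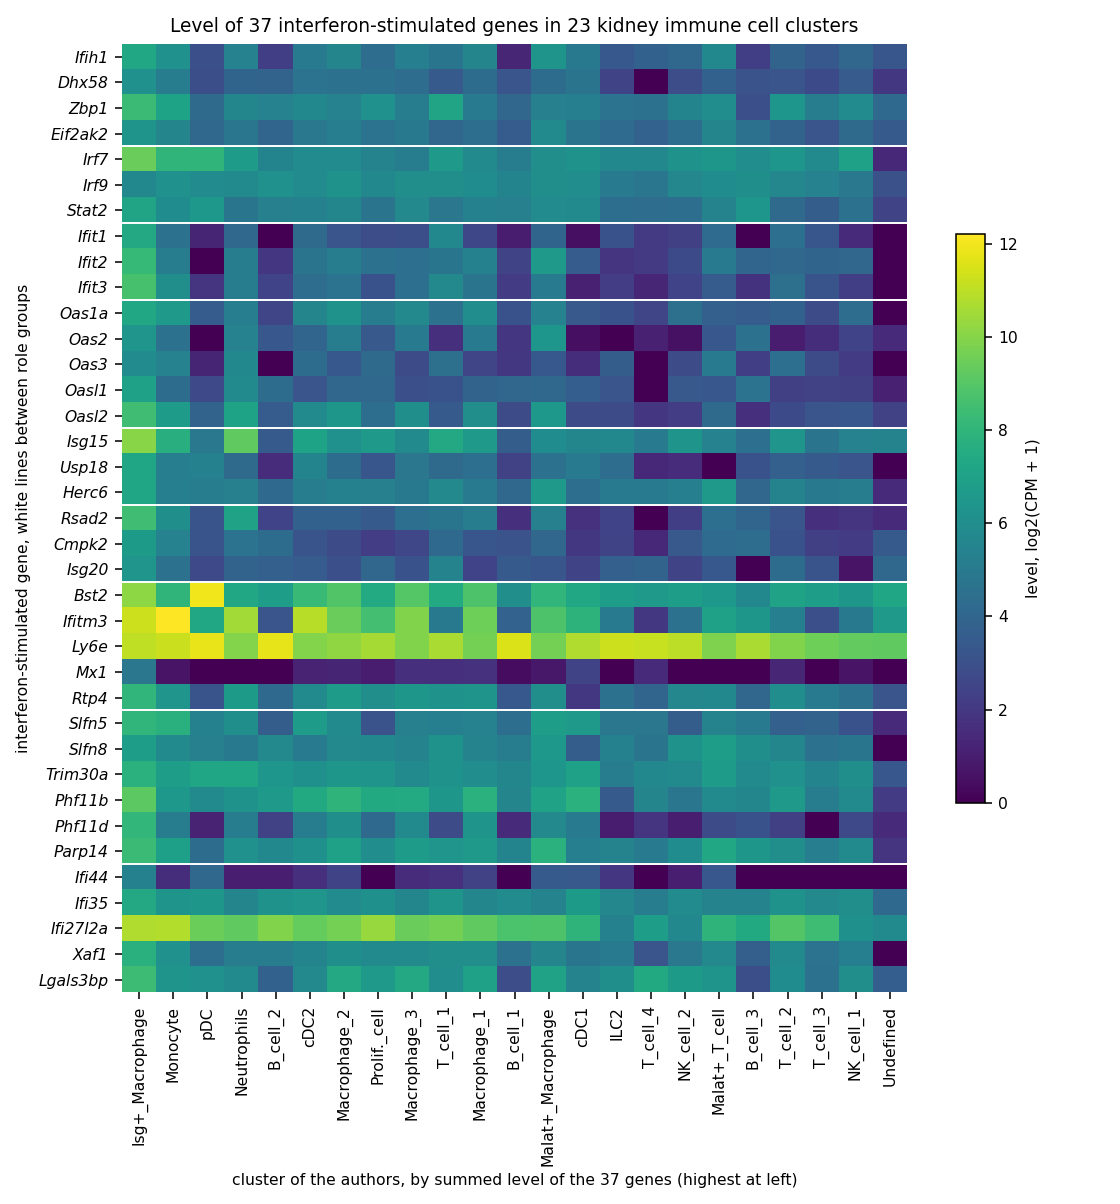
Level of each of the 37 members in the 23 clusters, as colour on the scale log2(CPM + 1) with UMIs of all 9 libraries summed per cluster, members grouped by role and clusters ordered by their summed level. The column of Isg+_Macrophage is the brightest for 31 members, whereas Ly6e and Bst2 peak in pDC and Ifitm3 and Ifi27l2a in Monocyte.

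A few abundant members dominated these sums. Ly6e, a surface protein that limits viral entry, reached 1610.4 CPM over all cells. Ifitm3, which blocks fusion of virus with endosomal membranes, reached 679, Ifi27l2a 631, Bst2 (tetherin, which holds budding virus at the cell surface) 284 and Phf11b 123. Together these 5 held 72.9% of the UMIs of all members. They made up 79.9% of the sum in Monocyte and 88.8% in pDC, but 52.7% in Isg+_Macrophage. With the 5 set aside, the remaining 32 members summed to 7266 CPM in Isg+_Macrophage, 2352 in Monocyte, 2139.5 in Neutrophils, 1066 in pDC and 494 in B_cell_1. In the members of lower abundance the lead of Isg+_Macrophage was therefore wider, and pDC stood below Macrophage_1 (1364).

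The Isg+_Macrophage cluster was the highest of the 23 clusters for 31 of the 37 members. Relative to Macrophage_1, Macrophage_2 and Macrophage_3 together, Ifit1 was 24.6-fold higher (164 against 6.67 CPM), Ifit3 17.2-fold, Rsad2 15.1-fold, Cmpk2 14.8-fold and Isg15 13.9-fold (1059.9 against 76.2 CPM). Irf7, the transcription factor that amplifies type I interferon production, was 13.5-fold higher. Ifit2 was 8.68-fold higher, with 295 against 33.9 CPM. At the other end stood Ly6e (2.14-fold), Lgals3bp (2.21-fold), Oas1a (2.36-fold) and Irf9, the DNA-binding subunit of the STAT complex, which was lower in Isg+_Macrophage (50.7 against 67.2 CPM). The members thus ranged from 0.755-fold to 24.6-fold in how far this cluster stood apart. Its name comes from genes of this kind, and the differences describe the cluster and were not tested.

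The cells of Isg+_Macrophage carried macrophage markers and some monocyte markers. Resident macrophage markers summed to 23851 CPM and C1qa, a complement component typical of resident macrophages, reached 5150.1 CPM. The monocyte gene Ly6c2 stood at 403 CPM, against 1.19, 34.8 and 1.91 in Macrophage_1, Macrophage_2 and Macrophage_3 and 1101 in Monocyte. Ccr2 did not set the cluster apart, with 261 CPM against 355 in Macrophage_2. Cells of this cluster made up 2.02 to 12.0% of the resident macrophages of a library. The share was 5.24, 3.02 and 4.36% in Aachen cortex, OM and IM, 5.19, 7.14 and 2.02% in Bonn, and 9.48, 12.0 and 11.2% in Hamburg. Hamburg libraries were above all others, and compartments had no common order across the facilities.

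Exceptions to the lead of Isg+_Macrophage were few. Ly6e (3566 CPM) and Bst2 (3986 CPM) were highest in pDC, which produce large amounts of type I interferon on infection. Ifitm3 (4768 CPM) and Ifi27l2a (1779.9 CPM) were highest in Monocyte, Irf9 in Macrophage_2 (76.7 CPM), and Oas2, which makes an activator of RNase L, in Malat+_Macrophage (84.6 CPM). Ifi27l2a was almost as high in Isg+_Macrophage (1762 CPM). Neutrophils held the next highest Isg15 (606 CPM) and Rsad2 (129.8 CPM) after Isg+_Macrophage, while Ifit1 and Zbp1 were next highest in T_cell_1 (51.7 and 141 CPM).

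Within single cells the low-abundance members occurred together most often in Isg+_Macrophage. All cells were thinned to 500 UMIs, cells below that were left out, and the members among a set of 7 classical targets (Isg15, Ifit1, Ifit2, Ifit3, Irf7, Rsad2 and Usp18) were counted. At least 2 of the 7 were detected in 75 of 259 Isg+_Macrophage cells (29.0%, exact 95% binomial interval 23.5 to 34.9), in 5.77% of Neutrophils, 3.66% of Monocyte, 2.88% of T_cell_1 and 1.50% of Macrophage_1. In B_cell_1, where these genes were low, the share was 0.0839% (3 of 3574 cells), with medians of 1633 and 2404 UMIs per cell before thinning in Isg+_Macrophage and B_cell_1. Without thinning the share was 60.8% in Isg+_Macrophage. Intervals cover counting error only. Single cells with several of these transcripts were thus found after thinning in every myeloid cluster except pDC (0 of 99 cells, exact interval up to 3.66%), at shares that differed widely.

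**Figure D2:**
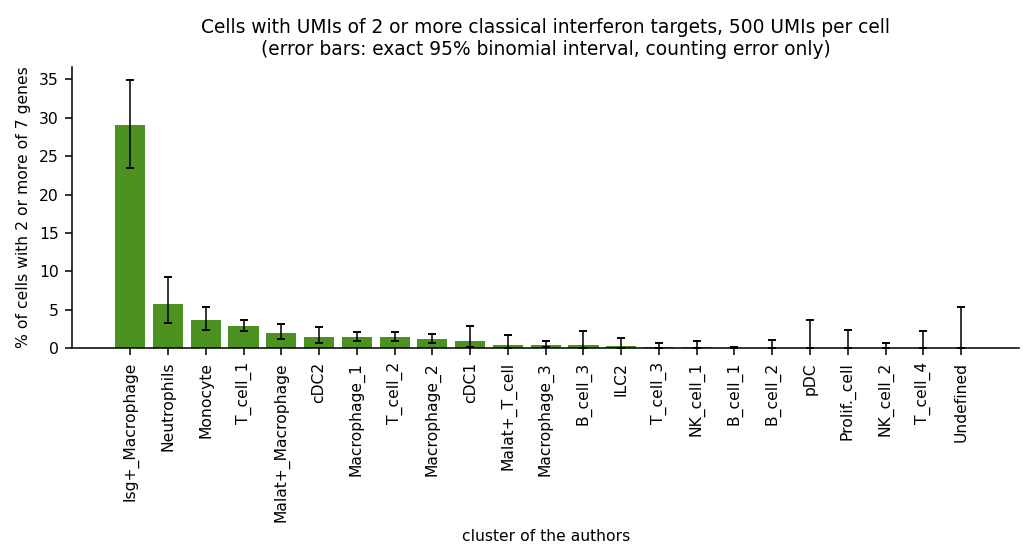
Share of cells with UMIs of at least 2 of the 7 classical members after thinning to 500 UMIs, by cluster, with exact 95% binomial intervals. Isg+_Macrophage stands at 29.0% and the next cluster, Neutrophils, at 5.77%.

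The compartments were compared first in the resident macrophages, taken as Macrophage_1, Macrophage_2, Macrophage_3 and Isg+_Macrophage (5367 cells, 168 to 1952 per library). These clusters were mixed differently in the libraries. Bonn cortex held 24 Macrophage_1 and 449 Macrophage_2 cells and Bonn IM 285 and 67, and Macrophage_3 had no cells in Aachen or Hamburg cortex, so that the comparison is also one of cluster mixes. UMIs were summed per library and the mean of OM and IM was compared with cortex, with the facility as block (edgeR quasi-likelihood test, Benjamini-Hochberg adjustment over 8687 genes). Of the 37 members, 3 were lower in medulla and 0 higher: Ifit2, Oasl1 and Rsad2. Over all genes tested, 0.599% were called lower and 1.24% were called in either direction. At an unadjusted p under 0.05 there were 18 members, all of them lower, against 4.95% of genes lower at that level. The log2 fold change was negative for 33 members, against 48.9% of all genes, with a median of -0.38 over the members and 0.01 over all genes. In 23 of the 37 the medulla was below the cortex at all 3 facilities, which held for 13.9% of all genes. The 37 genes are not independent of each other, and no test was made over the list.

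**Figure D3:**
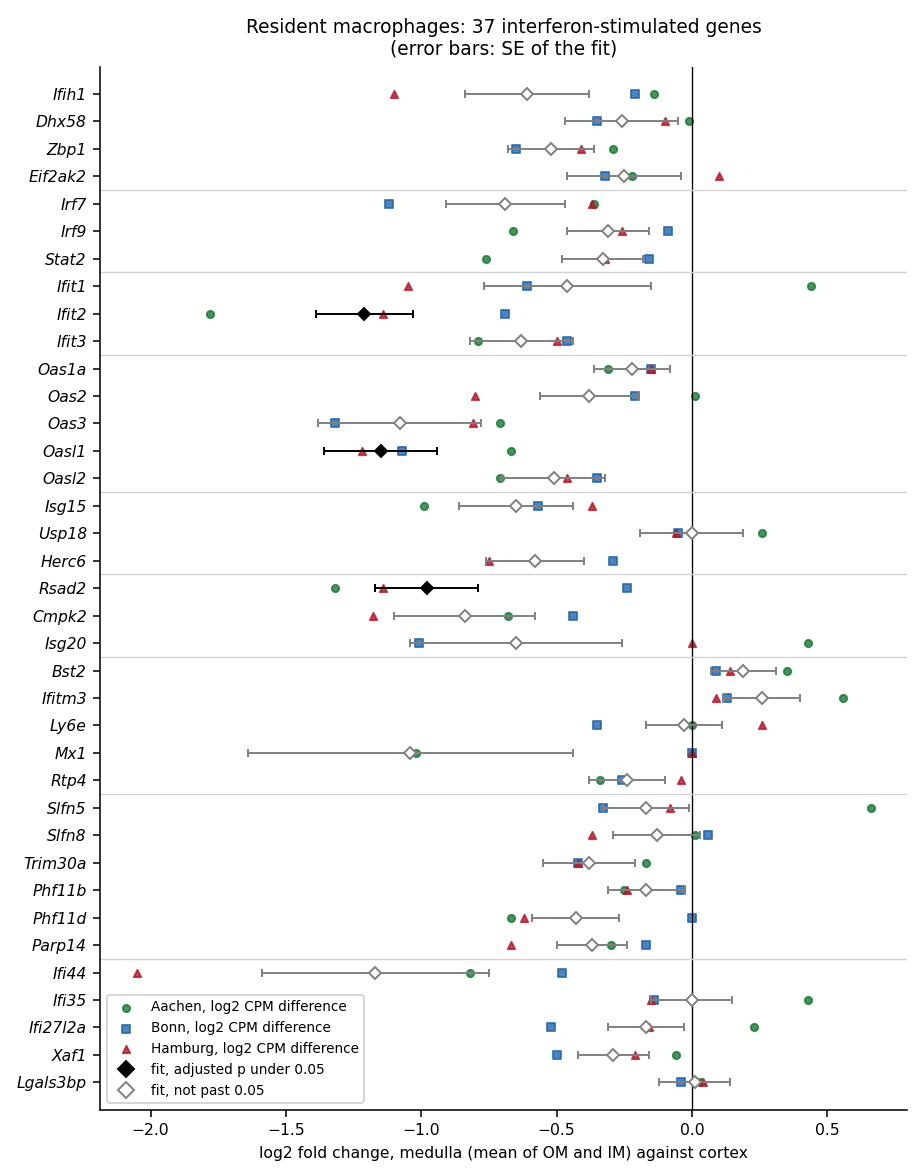
Log2 fold change of medulla against cortex in resident macrophages for the 37 members grouped by role (large points with standard error from edgeR) and the difference within each facility (small points, log2 CPM). Ifit2, Oasl1 and Rsad2 pass the adjusted threshold, Ifitm3 and Bst2 lie above 0 at every facility, and Mx1 (Bonn, Hamburg) and Isg20 (Hamburg) sit at 0 where no UMI was listed.

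Among the IFIT proteins, which bind viral RNA ends and block their translation, Ifit2 was the member with the largest called change. Its level, given here and below in the order cortex, OM and IM of each facility, was 116, 24.1 and 44.8 CPM in the Aachen libraries, 41.6, 28.3 and 22.7 in those of Bonn and 138, 57.2 and 66.9 in those of Hamburg. Cortex was the highest compartment at each facility, but the Bonn cortex library lay below both medullary Hamburg libraries, so that the groups overlapped. The log2 fold change was -1.21 ± 0.18 (SE) with an adjusted p of 0.00873. Ifit3 read 103, 42.2 and 82.1 CPM in the Aachen libraries, 43.2, 38.0 and 25.6 in those of Bonn and 65.4, 43.9 and 48.2 in those of Hamburg (log2 fold change -0.63 ± 0.19, adjusted p = 0.156). Ifit1 read 30.8, 27.1 and 65.3 CPM in the Aachen libraries, 15.2, 10.6 and 8.69 in those of Bonn and 15.6, 6.93 and 6.89 in those of Hamburg (-0.46 ± 0.31, adjusted p = 0.703), so that the Aachen IM was the highest of its libraries. The 3 neighbouring genes therefore did not pass the test together.

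**Figure D4:**
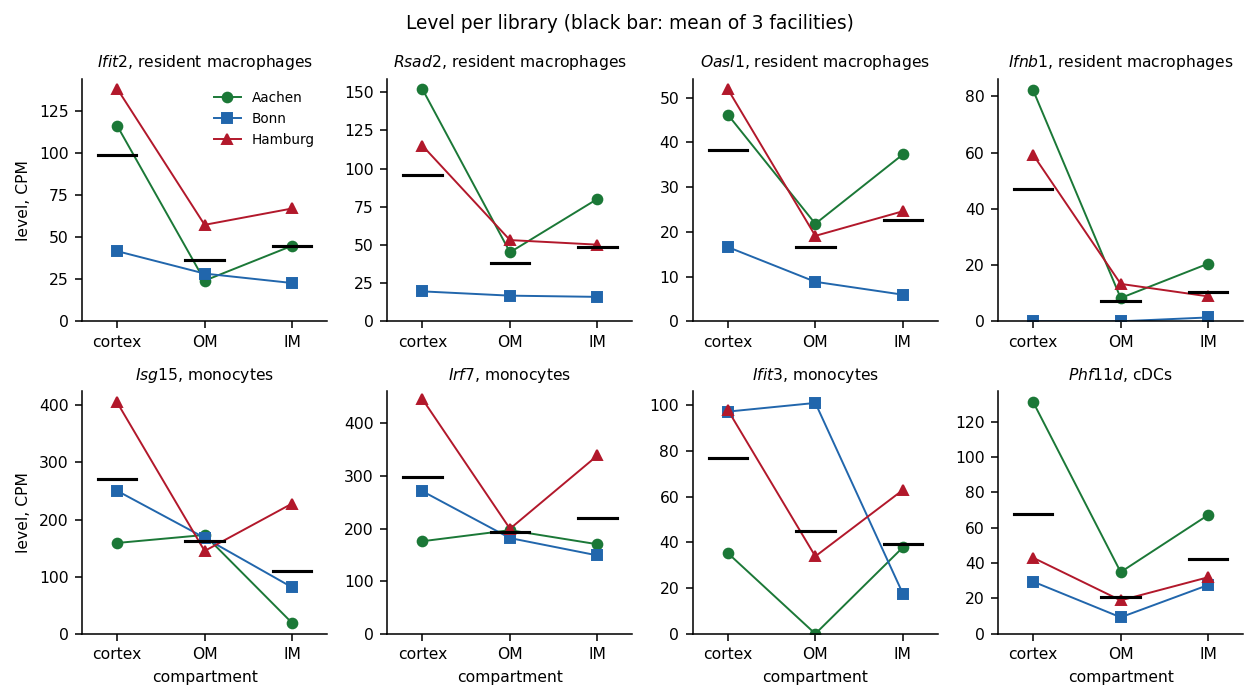
CPM in each of the 9 libraries, joined by facility from cortex to OM and IM, with black bars at the mean of the 3 facilities. Panels show Ifit2, Rsad2, Oasl1 and Ifnb1 (interferon beta) in resident macrophages, Isg15, Irf7 and Ifit3 in monocytes and Phf11d in cDCs. Ifit2, Rsad2, Oasl1 and Phf11d are highest in the cortex at each facility, and the Bonn libraries lie low in all compartments for Rsad2.

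The OAS proteins sense double-stranded RNA, and the catalytic ones make the second messenger that activates RNase L. Oasl1, a catalytically inactive relative that restrains Irf7 translation, read 46.2, 21.8 and 37.3 CPM in the Aachen libraries, 16.6, 8.83 and 5.95 in those of Bonn and 51.9, 19.1 and 24.6 in those of Hamburg. Cortex was again the highest at each facility, with Bonn low throughout. The log2 fold change was -1.15 ± 0.21 (adjusted p = 0.0176). Oas3 had its 3 cortex libraries (17.1, 13.3 and 13.5 CPM) above all 6 medullary libraries, the highest of which read 13.1 CPM, yet it did not pass (-1.08 ± 0.30, adjusted p = 0.128). Cmpk2, a mitochondrial nucleotide kinase, was the only other member without overlap (-0.84 ± 0.26, adjusted p = 0.174). Such separation was seen in 0.783% of all genes. Oasl2 (-0.51), Oas2 (-0.38) and Oas1a (-0.22) were below 0 without passing.

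Rsad2, or viperin, converts CTP into a chain terminator of viral RNA synthesis and lies beside Cmpk2. It read 152, 45.2 and 80.2 CPM in the Aachen libraries, 19.6, 16.8 and 16.0 in those of Bonn and 115, 53.2 and 50.2 in those of Hamburg. The cortex was highest at each facility, but Bonn cortex lay under every Aachen and Hamburg library. The log2 fold change was -0.98 ± 0.19 (adjusted p = 0.0212). Isg20, an RNA exonuclease, had -0.65 ± 0.39 and was listed at 0 in Hamburg.

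The ISG15 system attaches the ubiquitin-like protein ISG15 to other proteins, with Herc6 as a ligase and Usp18 as the protease that removes it and dampens the receptor. Isg15 read 410.3, 125 and 339.6 CPM in the Aachen libraries, 95.2, 76.8 and 52.9 in those of Bonn and 221, 143 and 204 in those of Hamburg (-0.65 ± 0.21, adjusted p = 0.218). Its cortex libraries were highest at each facility, though the Aachen IM was above the cortex of Bonn and Hamburg. Herc6 had -0.58 ± 0.18 (adjusted p = 0.179). Usp18 read 37.6, 47.4 and 42.9 CPM in the Aachen libraries, 20.7, 22.1 and 18.1 in those of Bonn and 38.4, 31.2 and 43.3 in those of Hamburg (0.00 ± 0.19, adjusted p = 1), without a common order of compartments.

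The transcription factors and sensors were below 0 without a call. Irf7 read 138, 73.8 and 157 CPM in the Aachen libraries, 96.0, 56.5 and 33.6 in those of Bonn and 147, 104 and 124 in those of Hamburg (-0.69 ± 0.22, adjusted p = 0.199). The Aachen IM thus lay above its cortex, while OM was the lowest or the middle value elsewhere. Stat2 (-0.33 ± 0.15) and Irf9 (-0.31 ± 0.15) completed the group. Ifih1 (MDA5, a cytosolic sensor of long double-stranded RNA) had -0.61 ± 0.23 and Zbp1, a sensor of Z-form nucleic acid, -0.52 ± 0.16. Dhx58 (-0.26) and Eif2ak2, the kinase PKR that halts translation (-0.25), were closer to 0.

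Members that act at membranes were centred near 0. Ifitm3 read 775 ± 123 CPM in cortex (SD, 3 libraries) and 961 ± 331 in medulla (SD, 6 libraries), and was higher in medulla at all 3 facilities (0.26 ± 0.14, adjusted p = 0.580). Bst2 was likewise higher at all 3 (0.19 ± 0.12, adjusted p = 0.682). Ly6e had -0.03 ± 0.14 and Rtp4 -0.24 ± 0.14. Mx1, a GTPase that is defective in most laboratory mouse strains, had -1.04 ± 0.60 from Aachen cells alone. The Schlafen, TRIM, PHF11 and PARP genes ranged from -0.13 (Slfn8) to -0.43 (Phf11d), and of the other induced genes Ifi44 had -1.17 ± 0.42 (adjusted p = 0.267). The 5 most abundant members, Ly6e, Ifitm3, Ifi27l2a, Bst2 and Phf11b, lay between -0.17 and 0.26.

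Each medullary part was also set against the cortex; these contrasts share their cortex libraries. In OM against cortex the same number of members, 3, was lower and 0 higher, with 0.852% of genes called in either direction: Ifit2 (-1.35, adjusted p = 0.0176), Rsad2 (-1.15, adjusted p = 0.0357) and Oasl1 (-1.27, adjusted p = 0.0359). The count was 5 without Bonn or Bonn IM, 1 (Ifit2) without Bonn OM, and 0 without Hamburg, Hamburg cortex, Hamburg OM, Aachen cortex or Aachen OM. In IM against cortex 0 members were called by edgeR (0.196% of genes), although 16 had an unadjusted p under 0.05 and 34 were negative (49.2% of genes), and DESeq2 called 0 as well. Without Aachen or Aachen IM, 4 members were called in IM against cortex (Ifit2, Irf7, Oasl1 and Zbp1). These fits called 207 of 8935 and 189 of 9369 genes. Ifit2 alone was called without Aachen OM (43 of 8542 genes). OM against IM called 0 members and 0 of 8687 genes, with 0 members at an unadjusted p under 0.05. The 2 medullary parts could not be told apart with these libraries.

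Few molecules stood behind the calls in the resident macrophages, and which genes were called changed with the clusters taken into the class. The part of the cluster mix in the calls was not tested. Ifit2 was detected in 394 of 5367 cells (7.34%), Rsad2 in 5.14%, Oasl1 in 3.58% and Isg15 in 15.4%; after thinning, Ifit2 was detected in 1.87% of Macrophage_1 against 0.252% of B_cell_1, whose cells should show little of it. Isg+_Macrophage cells, though a small part of the class, held 9.62 to 69.4% of its Rsad2 UMIs and at least 20.9% of its Ifit2 UMIs in a library. Without that cluster Ifit2 (-1.32 ± 0.20, adjusted p = 0.00333) and Oasl1 (-1.14 ± 0.26, adjusted p = 0.0289) were still called by edgeR. Isg15 was called as well (-0.80 ± 0.19, adjusted p = 0.0363), whereas Rsad2 was not (-0.44 ± 0.20, adjusted p = 0.434). That fit called 142 of 8308 genes, against 108 of 8687 with the cluster. In Macrophage_1 alone Ifit2 fell by 1.40 on the log2 scale (adjusted p = 0.00426), and Ifih1 was the other member called, of 31 tested. There 36 of 6978 genes were called. In Macrophage_2 alone 0 of 26 members were called by edgeR, 4 had an unadjusted p under 0.05, 17 were negative and the median was -0.12, with 1 of 4989 genes called. Ifit2 in Macrophage_2 had -1.05 ± 0.28 (adjusted p = 0.252). With every cell thinned to 500 UMIs, Ifit2 was the only member called in medulla against cortex (48 of 4242 genes). Ifit2 and Rsad2 were called in OM against cortex (62 of 4242 genes).

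The choice of libraries and fit mattered for the count. Without a replicate block for the facility edgeR called 0 members (3 at an unadjusted p under 0.05) and 0 of 8228 genes. DESeq2 with the block called the same 3 members and 48 of 8687 genes. Without Hamburg the count was 0, without Hamburg cortex 0, without Hamburg OM or Hamburg IM 1 (Ifit2), and without Aachen IM 8. Without Aachen IM the 8 genes were Ifih1, Ifit2, Ifit3, Irf7, Isg15, Oasl1, Rsad2 and Zbp1, in a fit that called 262 of 9369 genes against 108 of 8687 with all libraries. Rsad2 was not called without Aachen OM or Aachen cortex, and Oasl1 was not called without Bonn, Bonn cortex or Bonn IM. Ifit2 was called in 18 of 22 alternatives and below 0 in all of them, Rsad2 in 11 of 21 and Oasl1 in 10 of 20.

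Marker genes of other cells were summed in the same macrophage libraries. The 7 tubular markers together read 24.9 to 56.4 CPM in cortex and 85.8 to 674 CPM in medulla without overlap, and both of those tested were higher in medulla. The 4 monocyte markers read 198 to 485 CPM in cortex and 59.5 to 272 in medulla, with 0 of 3 tested called by edgeR and 2 at an unadjusted p under 0.05. The 6 T cell markers read 7.27 to 182 and 7.87 to 157 CPM. None of the markers of these lists was at 0 in every library. Cells with 2 or more UMIs of T and B cell markers together (mixed cells) were left out in 1 alternative. Tubular and monocyte markers were not used for this. It kept 228 of 539 cells in Bonn cortex and 479 of 496 in Aachen cortex. Ifit2 (-1.18, adjusted p = 0.00201) and Rsad2 (-0.87, adjusted p = 0.0472) were still called by edgeR. Oasl1 missed the threshold (-0.96, adjusted p = 0.0622), with 109 of 7983 genes called. The 7 immediate early genes, which rise during tissue digestion, summed to 14636, 10590.1 and 9101 CPM in the Aachen libraries, 959.7, 1315 and 4959 in those of Bonn and 24536, 21112 and 24000.2 in those of Hamburg. Bonn had the lowest cortex level of these genes and also of Ifit2, Rsad2 and Oasl1. The part of these genes and of foreign RNA in the member levels was not tested.

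Monocytes, the circulating precursors of inflammatory macrophages, were tested next (714 cells, 25 to 185 per library). Of 35 members tested, 3 were lower in medulla and 0 higher, where 0.232% of 6029 genes were called lower; 33 were negative (52.2% of all genes) with a median of -0.57. Isg15 read 159, 173 and 18.9 CPM in the Aachen libraries, 250.3, 168 and 81.3 in those of Bonn and 405, 145 and 228 in those of Hamburg (-1.15 ± 0.19, adjusted p = 1.5e-05). Bonn and Hamburg cortex were above their medullary libraries, whereas the Aachen values came from 9, 7 and 1 UMIs. In Hamburg the share of monocytes with Isg15 was not lower in medulla (26.1% in cortex, 27.3% in OM and 29.4% in IM). There 10 cells held 90.8% of the cortex UMIs, with 43.9 of 157 in 1 cell. In Bonn the share was highest in cortex (31.9%) and lowest in IM (11.1%), and 1 cortex cell held 57 of 273 UMIs. In Aachen the share was also highest in cortex (17.9%). Irf7 read 176, 197 and 170.2 CPM in the Aachen libraries, 271, 182 and 149 in those of Bonn and 446, 199.7 and 339 in those of Hamburg (-0.71 ± 0.18, adjusted p = 0.0318). Ifit3 read 35.3, 0 and 37.8 CPM in the Aachen libraries, 97.2, 101 and 17.6 in those of Bonn and 97.9, 33.9 and 62.9 in those of Hamburg (-1.14 ± 0.29, adjusted p = 0.0450), with 66.5% of its monocyte UMIs in 10 cells. For all 3 genes the cortex and medulla libraries overlapped. DESeq2 called 0 members (adjusted p = 0.999 for each of the 3), as did the fit without the replicate block, so these calls depended on the test. Over all genes, 1 of 6029 was called by DESeq2 and 0 of 5455 without the block.

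Within the monocytes OM against cortex gave Isg15 (-1.12, adjusted p = 0.00677), Ifit2 (-2.14 ± 0.53, adjusted p = 0.0322) and Irf7 (-0.89, adjusted p = 0.0393), with 0.332% of genes called in either direction. DESeq2, the fit without the replicate block, thinned cells (4 members tested) and the fit without mixed cells each called 0 members in this contrast. Isg15 was called in 8 of 17 alternatives, Irf7 in 5 of 17 and Ifit2 in 4 of 16, where its log2 fold change ran from -2.98 to -0.18. The monocyte Ifit2 values were 0 in all Aachen libraries, 47.7, 33.6 and 8.79 CPM in Bonn cortex, OM and IM, and 51.6, 9.14 and 65.1 in Hamburg, so that the IM of Hamburg exceeded its cortex. IM against cortex gave Isg15 alone (-1.18, adjusted p = 4.3e-04; 0.249% of genes), in 7 of 17 alternatives and not with DESeq2 or without the replicate block. OM against IM gave 0 members by edgeR, with 1 at an unadjusted p under 0.05 (0.133% of genes). Isg15 was called in 11 of 17 alternatives of the medulla contrast, Ifit3 in 5 and Irf7 in 4, all below 0. The count of 3 became 0 without Aachen, Hamburg, Hamburg cortex or Hamburg OM, and 1 (Isg15) without Bonn, Bonn cortex, Bonn IM, Aachen OM or Aachen IM. The count became 5 without Bonn OM, in a fit that called 26 of 6236 genes against 20 of 6029 with all libraries. In OM against cortex leaving out 1 library or facility gave 0 to 5 members, and in IM against cortex 0 to 2. Tubular markers reached 469 CPM in Aachen OM monocytes against 35.3 in Aachen cortex, and 28 to 32 monocytes stood behind each Aachen value.

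In conventional dendritic cells (cDCs), which present antigen to T cells, the members did not move together. Of 32 tested, 19 were negative (50.9% of genes) and the median was -0.06. Phf11d, a PHD finger gene, was the 1 member called in medulla against cortex (-0.90 ± 0.22, adjusted p = 0.0377), where 0.850% of 7293 genes were called lower. It read 131, 34.9 and 67.2 CPM in the Aachen libraries, 29.5, 9.33 and 27.6 in those of Bonn and 43.0, 18.9 and 32.0 in those of Hamburg, with the cortex highest at each facility and overlap between facilities. In OM against cortex Phf11d (-1.40, adjusted p = 0.0173) and Ifi27l2a (-0.74, adjusted p = 0.0346) were lower (0.987% of genes in either direction). Ifi27l2a read 566, 314 and 532 CPM in the Aachen libraries, 708, 338 and 448 in those of Bonn and 379.9, 305 and 443 in those of Hamburg, with OM lowest at each facility. It was called in 6 of 18 alternatives, with log2 fold changes of -0.99 to -0.46, and not with DESeq2 (adjusted p = 0.0678), without the replicate block, with thinned cells or without Aachen, Aachen OM, Aachen cortex, Bonn, Bonn OM, Bonn cortex, Hamburg, Hamburg OM or Hamburg IM. Isg15 was lower in OM than in IM (-1.30 ± 0.23, adjusted p = 0.0181; 0.110% of genes), reading 145, 34.9 and 134 CPM in the Aachen libraries, 69.2, 53.7 and 119.9 in those of Bonn and 82.4, 74.8 and 192 in those of Hamburg. OM was again the lowest compartment at each facility. This Isg15 call was made in 9 of 17 alternatives, with log2 fold changes of -1.68 to -1.10. It was lost with DESeq2 (adjusted p = 0.115), without the replicate block and without Aachen, Aachen OM, Bonn IM, Hamburg, Hamburg OM or Hamburg IM, and 88.9% of the Isg15 UMIs of Hamburg IM cDCs lay in 10 cells. IM against cortex called 0 members by edgeR and by DESeq2, with 5 at an unadjusted p under 0.05 by edgeR (1.06% of genes called).

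The mixture of cDC1 and cDC2 also differed between compartments, with 3 of 4 cDC1 markers lower and 3 of 4 cDC2 markers higher in medulla. Summed cDC1 markers read 864 to 1202 CPM in cortex and 460.5 to 684 in medulla, and cDC2 markers 456 to 1469.8 and 992 to 2649. Phf11d was close in both clusters (32.1 CPM in cDC1 and 34.9 in cDC2), while Isg15 (48.6 and 134 CPM) and Ifi27l2a (244 and 639 CPM) were higher in cDC2. The part of this mixture in the member values was not tested. Phf11d was called in 5 of 17 alternatives of the medulla contrast; DESeq2 called 0 members there and Phf11d in OM against cortex. Phf11d was called in the medulla contrast without Bonn or Bonn IM, and not without any other facility or library.

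Lymphocytes gave no call among genes that passed the filter on low counts. In T cells 33 members were tested and 0 called by edgeR in medulla against cortex (0.0335% of genes in either direction), with 6 at an unadjusted p under 0.05, 26 negative (48.9% of genes) and a median of -0.21. The median was -0.33 in OM against cortex and -0.04 in IM against cortex. In B cells 26 were tested and 0 called (0.0898% of genes), with 2 at an unadjusted p under 0.05 and a median of 0.06. DESeq2 likewise called 0 members in both classes. With no filter T cells gave 2 lower members in medulla against cortex (Isg15 and Xaf1; 107 of 17114 genes), 4 in OM against cortex (Ifit1, Ifit3, Isg15 and Xaf1; 86 genes) and 2 in OM against IM (Ifit3 and Isg15; 45 genes), and B cells gave 0 in each contrast. Ifit2 was 18.2 ± 5.86 CPM in T cells of the cortex and 14.3 ± 2.96 in those of the medulla (SD over 3 and 6 libraries). NK cells were not tested because the Bonn OM library held 19 of them.

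**Figure D5:**
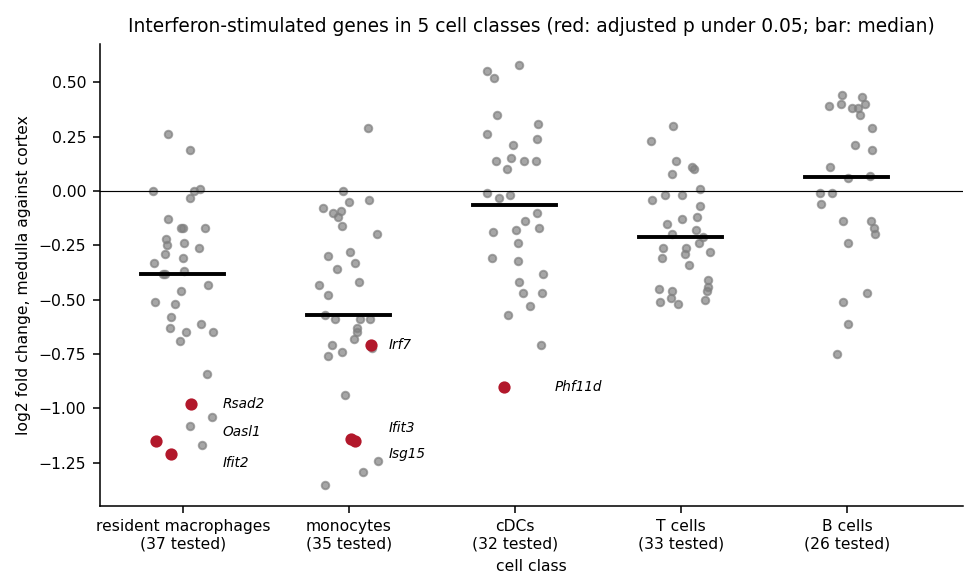
Log2 fold change of medulla against cortex (edgeR) for each member tested in resident macrophages, monocytes, cDCs, T cells and B cells, with called members filled and named and the median as a line. The medians are -0.38, -0.57, -0.06, -0.21 and 0.06.

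Whether the shift differed between classes was tested directly as an interaction in edgeR. The model held the facility as a block within each class. It had no term for the library that both classes share, so that pairing was not used. Between resident macrophages and T cells 0 members differed (0.0200% of 10004 genes), with 4 at an unadjusted p under 0.05. Between resident macrophages and B cells 0 members differed (0.129% of 10099 genes), with 5 at an unadjusted p under 0.05. For Ifit2 the difference was -0.66 ± 0.31 against T cells (adjusted p = 0.690) and -1.33 ± 0.53 against B cells (adjusted p = 0.822). A call in macrophages and none in lymphocytes is therefore not evidence of a difference between them.

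The other genes of the pathway were taken from a list of 45 ligands, receptors, kinases, sensors, brakes and interferon gamma targets, of which 42 were tested in resident macrophages. One ligand was lower and 1 sensor higher in medulla, where 1.24% of all genes were called, with a list median of -0.11. Ifnb1, which encodes interferon beta, had a log2 fold change of -2.19 ± 0.42 (adjusted p = 0.0212). It read 82.1, 8.28 and 20.5 CPM in the Aachen libraries, 0, 0 and 1.37 in those of Bonn and 59.2, 13.3 and 8.86 in those of Hamburg. Cortex was several-fold higher in Aachen and Hamburg, and Bonn had almost no transcript. These values came from 73 of 5367 cells. DESeq2 did not call it (-1.56, adjusted p = 1) and it was called in 11 of 21 alternatives. Its adjusted p was 0.381 without Hamburg, 0.0763 without Aachen and 1.7e-04 without Bonn. It was also over the threshold without Hamburg cortex, OM or IM, Aachen cortex or OM, or Bonn OM. Tlr7, an endosomal receptor for single-stranded RNA, rose in medulla (1.09 ± 0.19, adjusted p = 0.0171), reading 18.8, 46.7 and 20.5 CPM in the Aachen libraries, 32.9, 79.5 and 72.5 in those of Bonn and 32.2, 56.6 and 66.9 in those of Hamburg. Each medullary library was above the cortex of its own facility. Within Macrophage_2 alone the difference was 0.11 ± 0.28 (adjusted p = 0.999), and Tlr7 was not called without Bonn, Bonn cortex, Hamburg or Hamburg cortex.

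The receptors and kinases themselves did not differ detectably between compartments. In resident macrophages Ifnar1 had -0.21 ± 0.12, Ifnar2 0.06 ± 0.12, Ifngr1 0.12 ± 0.12, Jak1 0.25 ± 0.13 and Tyk2 0.18 ± 0.25. The 14 targets of interferon gamma, such as guanylate-binding proteins and chemokines, gave 0 calls and a median of -0.13. By cluster, Jak1 was 126 CPM in Isg+_Macrophage and 122 in Macrophage_1, Ifngr1 293 and 363, and Ifnar2 326 and 344. Cxcl10, a chemokine induced by interferon, was higher in Isg+_Macrophage (729 against 105 CPM). Ifng was found mainly in NK and T cells (585 CPM in NK_cell_1), and Ifna4 and Ifnl3 had no UMI in any cluster.

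In monocytes the chemokine Cxcl10, which attracts T cells and NK cells, was the 1 pathway gene called of 33 tested (-2.53 ± 0.22, adjusted p = 1.3e-18), where 20 of 6029 genes were called. It read 406, 0 and 0 CPM in the Aachen libraries, 55.9, 6.72 and 13.2 in those of Bonn and 598, 109.6 and 126 in those of Hamburg. The cortex was the highest at each facility and 52 of 714 cells carried it, with 69.6% of its UMIs in 10 cells. In Aachen cortex 2 of 28 cells carried its 23 UMIs, 22 of them in 1 cell. In Hamburg cortex 1 cell held 123 of 232 UMIs. In Bonn cortex 13 of 185 cells held 61 UMIs, with at most 16 in a cell. DESeq2 also called it (-3.05, adjusted p = 0.00240), and 15 of 17 alternatives did. In cDCs Irf8 (-0.95, adjusted p = 0.00208), Tlr3 (-1.29, adjusted p = 7.6e-04) and Psmb9 (-0.54, adjusted p = 0.0307) were lower and Socs3, a brake on cytokine receptors, higher (1.30, adjusted p = 0.00516), of 38 tested and with 132 of 7293 genes called. Irf8 and Tlr3 are typical of cDC1, whose summed markers were also lower in medulla. The part of the cDC mixture in these pathway values was not tested.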

How the data were processed

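The authors mapped reads with Cell Ranger to mm10, kept cells with 200 or more genes, and integrated and clustered them with Seurat (names per the submitters' processing notes and the study's methods). The authors deposited estimated counts of UMIs per cell and gene, without scaling to library size, with the compartment, cluster and facility of each cell; Hamburg values are not whole, for a reason not given in the sources used here. The table held 0 other columns of per-sample values.

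Counts were summed per class and library (at least 20 cells), rounded, filtered with filterByExpr, scaled by TMM and tested by the quasi-likelihood F-test (edgeR 4.0.16 under R 4.3.3) in a model of compartment and facility block, with Benjamini-Hochberg adjustment and a threshold of 0.05. DESeq2 1.42.0 was an alternative. Log2 CPM used a prior count of 2. CPM per library are TMM-scaled; CPM per cluster are of the cluster's total. Doublets were not called again. The facility pairs the libraries: within a facility centred profiles of resident macrophages correlated at 0.81 to 0.91 (9 pairs), between facilities at -0.87 to 0.48 (27 pairs). In monocytes the pairing was weaker, at 0.47 to 0.58 within and -0.86 to 0.47 between facilities. The rule that lists the members uses no measured value, but members, lists and tests were chosen with earlier results of these data known. Full values are given for members called in any contrast, for 7 classical targets and, by cluster, for the 5 members with the highest CPM; of other genes, those called, the receptors and kinases with the highest level, and the 10 closest in pattern are named. Cell type mixtures were checked with marker lists, and the alternatives are named with their effect in the closing section. The scripts were tested on simulated data.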

Additional observations from a re-analysis of the deposited data

Results flagged for a closer look

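For 2 members named above, every facility moved one way in the resident macrophages and the opposite way in another class. Ifit2 in medulla minus cortex (log2 CPM) was -1.78 in Aachen, -0.69 in Bonn and -1.14 in Hamburg in resident macrophages, and 0.22, 0.18 and 0.61 in cDCs. This difference was not tested. The levels in cDCs were low, at 13.2 ± 3.69 CPM in cortex (SD, 3 libraries) and 18.9 ± 8.71 in medulla (SD, 6 libraries).

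Oasl1 was -0.67, -1.07 and -1.22 in resident macrophages of Aachen, Bonn and Hamburg, and 3.66, 0.43 and 0.11 in B cells. Tested as an interaction in edgeR, the difference was -1.51 ± 0.38 with an adjusted p of 0.193 over 10099 genes. With no filter on low counts it was called, in a fit that called 105 of 17800 genes, and under no other setting. The value of 3.66 in Aachen B cells compares 0 UMIs in cortex with 5 in OM and 5 in IM.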

How the results depend on the processing

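Counts of members called moved by more than 1.5 times under these settings, of which Macrophage_1 or Macrophage_2 alone and the leaving out of single libraries were chosen after seeing the data. In resident macrophages, medulla against cortex, the count of 3 became 11 with no filter on low counts (382 of 16578 genes called), 1 with thinned cells, and 0 in Macrophage_2 alone or with no replicate block; leaving out a facility or library gave 0 to 8. In OM against cortex it became 7 with no filter (330 of 16578 genes called, against 74 of 8687 with the filter). It became 1 in Macrophage_1 alone or with Malat+_Macrophage added, and 0 in Macrophage_2 alone or with no replicate block (left-out range 0 to 5). In IM against cortex the count of 0 became 4 with no filter (279 of 16578 genes called, against 17 of 8687 with the filter). It became 1 without Isg+_Macrophage (41 of 8308 genes) or without mixed cells (39 of 7983 genes), with a left-out range of 0 to 4. OM against IM stayed at 0. T cells gave 2 with no filter (4 in OM against cortex and 2 in OM against IM). The contrast of resident macrophages with B cells gave 2 with no filter (Irf7 and Oasl1, with 105 of 17800 genes called). In cDCs the count of 1 became 4 with no filter (272 of 15487 genes called) and 0 with DESeq2 or with no replicate block (0 to 2). In monocytes the count of 3 became 1 without mixed cells and 0 with DESeq2, thinned cells or no replicate block (0 to 5). As a mean over cells, the summed level was 10254 in Monocyte (11687 from summed UMIs) and 4367 in Macrophage_3 (4555). The cause was not tested.

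Signs turned for Ifit1 without mixed cells (0.15), Irf7 in Macrophage_2 alone (0.15), and Usp18 with DESeq2 size factors (-0.01), in Macrophage_1 alone (-0.14), and without Aachen (-0.13), Aachen OM (-0.07), Aachen cortex (-0.10), Bonn OM (-0.04) or Hamburg IM (-0.07); it was 0.12 without Bonn IM. Giving Macrophage_1, Macrophage_2 and Macrophage_3 equal weight was not run, since Macrophage_3 had no cells in 2 cortex libraries, and NK cells were not run. Depth limits the low members: 24 to 153 UMIs of Ifit2 stood behind a macrophage library.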

Other observations

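Some members with no call went in one direction at every facility. Parp14, a mono-ADP-ribosyltransferase, was below the cortex at all 3 facilities in the medulla of resident macrophages (-0.30, -0.17 and -0.67 in log2 CPM for Aachen, Bonn and Hamburg) and of monocytes (-1.12, -0.10 and -0.41), and above it in cDCs (0.38, 0.08 and 0.22) and B cells (0.28, 0.18 and 0.20). Slfn5 and Slfn8, Schlafen genes that lie close to each other on chromosome 11, were below the cortex in T cells (Slfn5 -0.24, -0.41 and -0.42). In B cells both were above it (Slfn5 0.36, 0.34 and 0.50). Bst2 was above the cortex in resident macrophages (0.35, 0.09 and 0.14) and below it in monocytes (-0.43, -0.73 and -0.04). These differences between classes were not tested.

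Across 152 sums of a cluster in a library, centred on the library mean, the 10 genes outside the list whose log2 CPM was most like the mean of the members were Ifi204 (Pearson's r of 0.83), Fcgr1 (0.82), Parp12 (0.81), Klra2 (0.80), Fcgr4 (0.80), Tmem106a (0.79), Ms4a6c, Clec4a1 and Clec4a2 (0.78 each) and Ctsb (0.77). Among the members, Ifit3 (0.86) and Oasl2 (0.84) were most like the rest, and Irf9 (0.32) and Ly6e (-0.06) least. Sums of one library share its depth and facility, so that these values are descriptions.

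The 2 barcode suffixes of the Aachen libraries differed in member levels. These CPM are of the total UMIs of the class under a suffix, without the TMM scaling of the library values above. In cortex macrophages Ifit2 was 135 CPM under the first suffix and 37.2 under the second, while Rsad2 was 66.1 and 177. Isg15 in IM was 383 and 155 CPM in macrophages and 239 and 103 in T cells. What the suffixes stand for is not given in the sources used here.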
